A study of Mus musculus with 10 samples.

Results

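The 10 genes described here encode the machinery that moves a cell through the G1 phase of the cell cycle: the D cyclins Ccnd1, Ccnd2 and Ccnd3, the cyclin-dependent kinases Cdk4 and Cdk6, the kinase inhibitors Cdkn1a, Cdkn1b and Cdkn2c, and the transcription factors E2f1 and E2f2. They were chosen by symbol from a table of 16936 protein-coding genes, and all 10 were found there and passed the filter on low values. The cells were mouse bone marrow-derived macrophages, in both groups differentiated from marrow over 7 days with 50 ng/mL of GM-CSF, a growth and differentiation factor. The 5 samples labelled BMDM_untreated got no further agent, and the 5 labelled BMDM_PLG were kept for 24 h with PLG, which the design text of the series gives as human plasminogen, the blood precursor of the protease plasmin. No label gives the strain, sex or age of the mice or names a control preparation, so plasminogen and anything else in the added material cannot be told apart. Whether each replicate is a mouse or a culture of its own is not in the labels, so the p-values speak to the spread among these samples, which may be technical.

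D cyclins are made in response to growth factors and bind CDK4 and CDK6, and the active kinases phosphorylate the retinoblastoma protein. Retinoblastoma protein without phosphate holds E2F transcription factors, and its phosphorylation frees them to switch on genes of DNA synthesis. Inhibitors of the INK4 class, such as the product of Cdkn2c, bind CDK4 and CDK6 alone, whereas p21 (Cdkn1a) and p27 (Cdkn1b) bind cyclin and kinase complexes. In macrophages GM-CSF and M-CSF drive proliferation through this route, and bacterial products are known to halt it.

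Expression was measured as FPKM, reads scaled to gene length and to the depth of the library. Levels were compared on this scale between genes and between samples. It does not correct for what else a library holds, and 1 length per gene was used whichever transcripts were made. The reads on the listed genes, recovered from the steps of the low FPKM values, came to 28426106 to 37680102 in untreated and 33547089 to 64214543 in PLG samples. All 8 macrophage markers, among them Adgre1 (72.8 to 85.8 FPKM untreated, 164 to 191 with PLG) and Csf1r (238 to 253 and 193 to 225 FPKM), passed the filter, with 2 higher and 5 lower with PLG and a summed level of 5874 to 7395 FPKM in untreated and 3137 to 3243 FPKM in PLG samples. The fall of the sum was carried by Lyz2: the other 7 macrophage markers summed to 776 to 835 FPKM in untreated and 1124 to 1249 FPKM in PLG samples, where Cd14 was at 454 to 572 FPKM against 30.5 to 38.2 FPKM. Only Cd14 and Adgre1 rose, and Fcgr1 did not pass. Besides Lyz2 and Csf1r, Cd68 fell from 318 to 396 FPKM to 235 to 255 FPKM. Mertk fell from 21.3 to 26.7 FPKM to 5.55 to 6.99 FPKM, and Itgam from 34.3 to 45.2 FPKM to 17.3 to 27.4 FPKM. Over all genes tested 29.1% were higher and 31.3% lower, by the test described below. T and NK cell, B cell, erythroid and stromal markers summed to at most 1.17 FPKM in any sample. Of 5 tested dendritic cell markers 4 rose and 1 fell, with a summed level of 295 to 336 FPKM in untreated and 675 to 746 FPKM in PLG samples. The rise of the sum was carried by Ccr7, at 26.8 to 53.4 and 507 to 574 FPKM, and without it the sum was 263 to 291 and 165 to 182 FPKM, since Itgax fell from 258 to 288 FPKM to 148 to 166 FPKM. The other risers weigh little in the sum and did not overlap between groups. They were Flt3 (0.056 to 0.175 and 1.64 to 2.83 FPKM), Zbtb46 (1.15 to 2.15 and 5.70 to 7.44 FPKM) and Dpp4 (1.70 to 2.84 and 6.89 to 8.11 FPKM). Of these, Flt3 passed the filter only through the PLG samples. Of 4 tested neutrophil markers 2 rose, with sums of 10.5 to 20.0 and 16.6 to 26.3 FPKM and with Ly6g listed at 0 in every untreated sample, and of 2 tested mast cell and basophil markers 1 rose, with sums of 2.99 to 5.10 and 5.01 to 6.84 FPKM. The progenitor marker Kit fell, from 6.49 to 14.2 FPKM in untreated samples to 6.30 to 8.13 FPKM with PLG, a range that overlapped. The part of these shifts in the results below was not tested, and in bulk RNA fewer cells of a type and less RNA per cell cannot be told apart. The gene model Gm10800 varied from 1339 to 59685 FPKM among samples of both groups and was lowest in untreated 2, PLG 3 and PLG 4.

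With PLG, the cells carried far more Ccnd2 and more Cdkn1a and Cdkn1b transcript, and less Ccnd1, Cdk4, Cdkn2c, E2f2 and, by a small and unstable margin, Ccnd3. Fold changes were fitted with limma on log2(FPKM + 1), a scale that compresses changes at low levels, and were adjusted by Benjamini and Hochberg over 9997 genes with a threshold of 0.05. By this test 3 of the 10 genes rose, 5 fell and 2, Cdk6 and E2f1, did not pass. Across all genes tested 60.4% passed, 29.1% upward and 31.3% downward. The groups did not overlap for 6 of the 10 genes, beside 47.2% of all genes tested. The median log2 fold change of the 10 genes was -0.09, beside -0.02 over all genes tested. The genes therefore moved in opposite directions and not as a block, and the shares that passed or did not overlap are read against a background in which most genes changed.

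**Figure D1:**
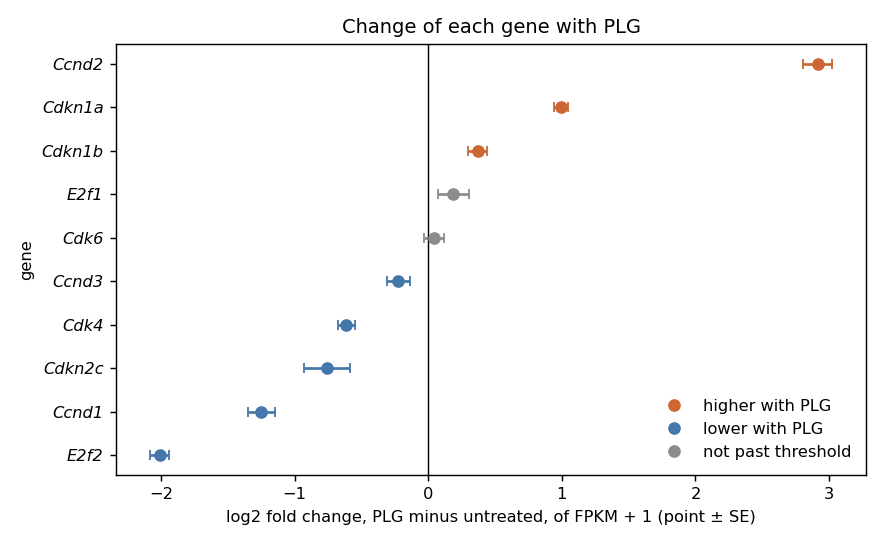
Log2 fold change (PLG minus untreated, of FPKM + 1) of each of the 10 genes on the x axis, with points for the limma estimate, bars for its standard error, 5 samples per group, and orange for higher, blue for lower and grey for not past the threshold. Ccnd2 stands at 2.91 and E2f2 at -2.01, at opposite ends, with Cdk6 at 0.04 near the middle.

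The 3 D cyclin genes went different ways. Ccnd2 (ENSMUSG00000000184.12, GRCm38 chromosome 6, 127125162 to 127152193) was at 7.99, 8.42, 8.62, 5.04 and 8.2 FPKM in untreated 1 to 5. In PLG 1 to 5 it was at 67.7, 58.8, 63.1, 66.1 and 61.4 FPKM. Every PLG sample lay far above every untreated one, and untreated 4 lay below the rest of its group. The mean went from 7.65 ± 1.48 to 63.4 ± 3.56 FPKM (SD, n = 5 each), an 8.28-fold ratio of FPKM, with a limma log2 fold change of 2.91 (SE 0.11, adjusted p = 5.08e-11). An exact permutation test of the means, two-sided here and below, gave p = 0.00794, the smallest that 252 assignments of the samples allow.

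Ccnd1 (ENSMUSG00000070348.5, chromosome 7, 144929931 to 144939925), the D cyclin best known from growth factor signalling and cancer, did the opposite from a lower level. It was at 2.17, 3.05, 3.05, 2.05 and 2.77 FPKM in untreated 1 to 5. In PLG 1 to 5 it was at 0.493, 0.459, 0.556, 0.608 and 0.441 FPKM, values that rest on 88 to 147 reads per library. All PLG samples lay below all untreated samples, and the spread within the PLG group was small. Ccnd1 passed the filter of 1 FPKM in at least 5 samples only through the untreated group, which favoured finding a fall. Without a filter its limma adjusted p was 1.96e-06. The mean fell from 2.62 ± 0.479 to 0.511 ± 0.0696 FPKM, 5.12-fold in FPKM, with a limma log2 fold change of -1.25 (SE 0.10, adjusted p = 1.21e-07, exact permutation p = 0.00794). The added 1 compresses this change: with 0.1 in its place the log2 fold change was -2.14.

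Ccnd3 (ENSMUSG00000034165.16, chromosome 17, 47505051 to 47599691), the D cyclin known for its part in blood cell precursors, was at 4.44, 4.93, 4.66, 3.60 and 4.04 FPKM in untreated 1 to 5. With PLG it was at 4.08, 3.53, 3.44, 3.49 and 3.25 FPKM. The groups overlapped, with PLG 1 above untreated 4 and 5. The means were 4.34 ± 0.524 and 3.56 ± 0.308 FPKM (limma log2 fold change -0.22, SE 0.09, adjusted p = 0.0377, exact permutation p = 0.0238). The call was lost in 11 of 20 alternatives (adjusted p 0.00824 to 0.214 over all of them), among them without a filter (0.0535) and with the replicate number as a block (0.0528). Leaving out untreated 1 (0.0688), untreated 2 (0.0806), untreated 3 (0.0782), PLG 2 (0.0627), PLG 3 (0.0716), PLG 4 (0.0691) or PLG 5 (0.0909) also ended it.

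**Figure D2:**
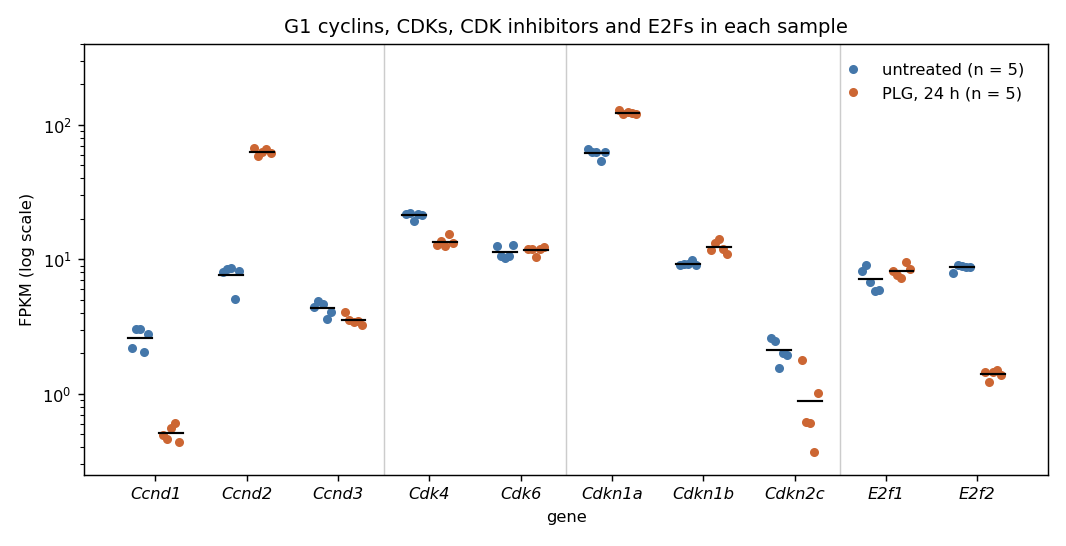
FPKM on a log axis for each of the 10 genes, with 1 point per sample, 5 untreated (blue) and 5 PLG (orange), and a bar at each group's mean. Ccnd2 rises from 5.04 to 8.62 up to 58.8 to 67.7 FPKM and E2f2 falls from 7.98 to 9.05 down to 1.23 to 1.51 FPKM without overlap, while the groups of Cdk6 and E2f1 lie over each other.

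Of the kinases that D cyclins activate, Cdk4 fell and Cdk6 did not pass the test. Cdk4 (ENSMUSG00000006728.12, chromosome 10, 127063534 to 127067920) was at 21.6, 22.2, 19.4, 21.7 and 21.3 FPKM in untreated 1 to 5. In PLG 1 to 5 it was at 12.8, 13.8, 12.7, 15.3 and 13.3 FPKM. No PLG sample reached the lowest untreated one. The mean fell from 21.3 ± 1.07 to 13.6 ± 1.08 FPKM (limma log2 fold change -0.61, SE 0.06, adjusted p = 9.59e-07, exact permutation p = 0.00794). Cdk6 (ENSMUSG00000040274.11, chromosome 5, 3341485 to 3531008) was at 12.6, 10.6, 10.2, 10.5 and 12.9 FPKM in untreated samples, and at 11.9, 11.9, 10.4, 11.9 and 12.3 FPKM with PLG. The PLG values lay inside the untreated range, with means of 11.4 ± 1.26 and 11.7 ± 0.712 FPKM (limma log2 fold change 0.04, SE 0.07, adjusted p = 0.676, exact permutation p = 0.595).

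The RefSeq promoter of Cdk4 on GRCm38.p6 is shown because it holds several copies of the E box CACGTG, a sequence that Myc with its partner Max can bind, and because Myc was among the genes that fell. The window runs from 250 bases before the start to 50 after it, at chr10:127063285-127063584 on the + strand, and the E boxes are in capitals.
Cdk4 promoter: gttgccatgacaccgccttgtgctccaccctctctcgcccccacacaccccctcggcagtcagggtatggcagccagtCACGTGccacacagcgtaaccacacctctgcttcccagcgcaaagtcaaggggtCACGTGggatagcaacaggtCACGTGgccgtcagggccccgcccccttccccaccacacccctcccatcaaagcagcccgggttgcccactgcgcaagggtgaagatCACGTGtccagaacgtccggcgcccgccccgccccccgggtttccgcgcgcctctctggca
The 4 copies all lie before the start. Over all 32851 promoters of the same length, searched on both strands of this palindrome, 7.15% held at least 1 copy and 8 promoters held 4 or more. Cdk6 had 1 copy in its promoter and Cdkn2c 1 in the second of its 2 promoters. A match describes the sequence and is no evidence of binding in these cells. Myc (ENSMUSG00000022346.15) was at 4.94 to 7.12 FPKM in untreated samples, and at 1.37 to 1.86 FPKM with PLG.

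The CDK inhibitors also divided. Cdkn1a (ENSMUSG00000023067.14, chromosome 17, 29090976 to 29100727), which encodes p21, a target of p53 and of other stress and differentiation signals, was at 66.8, 62.6, 62.7, 53.7 and 63.1 FPKM in untreated 1 to 5. In PLG 1 to 5 it was at 129.8, 119.6, 124.5, 123.3 and 121.3 FPKM. The groups lay well apart, and the 5 PLG samples were close to each other. The mean rose from 61.8 ± 4.84 to 123.7 ± 3.87 FPKM (limma log2 fold change 0.99, SE 0.06, adjusted p = 2.38e-09, exact permutation p = 0.00794). In both groups Cdkn1a was the most abundant of the 10 transcripts per length.

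Cdkn1b (ENSMUSG00000003031.14, chromosome 6, 134920401 to 134925513), which encodes p27, an inhibitor linked to quiescence, was at 9.04, 9.26, 9.27, 9.93 and 9.08 FPKM in untreated 1 to 5 and at 11.7, 13.2, 14.2, 11.9 and 10.9 FPKM in PLG 1 to 5. All PLG samples lay above all untreated ones, by a margin of less than 1 FPKM between the nearest. The means were 9.32 ± 0.360 and 12.4 ± 1.31 FPKM (limma log2 fold change 0.37, SE 0.07, adjusted p = 4.39e-04, exact permutation p = 0.00794). Cdkn2c (ENSMUSG00000028551.14, chromosome 4, 109660876 to 109667189), which encodes the INK4 inhibitor p18, was at 2.59, 2.47, 1.55, 2.01 and 1.93 FPKM in untreated samples, and at 1.80, 0.622, 0.611, 0.372 and 1.01 FPKM with PLG. PLG 1 lay above untreated 3, while the other 4 PLG samples lay below every untreated one. The means were 2.11 ± 0.421 and 0.883 ± 0.561 FPKM (limma log2 fold change -0.76, SE 0.17, adjusted p = 0.00169, exact permutation p = 0.0159), and the lowest PLG library held 44 reads.

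RefSeq gives Cdkn1a on GRCm38.p6 a pair of starts, and the promoter of the upstream one is shown, at chr17:29090729-29091028 on the + strand, because it holds a sequence of the form that p53 binds. The letters searched were CATG, any 6 bases and CATG again, a form of the core of a pair of abutting p53 half-sites, on both strands, and the match is in capitals. Half-sites with other core letters were not searched.
Cdkn1a upstream promoter: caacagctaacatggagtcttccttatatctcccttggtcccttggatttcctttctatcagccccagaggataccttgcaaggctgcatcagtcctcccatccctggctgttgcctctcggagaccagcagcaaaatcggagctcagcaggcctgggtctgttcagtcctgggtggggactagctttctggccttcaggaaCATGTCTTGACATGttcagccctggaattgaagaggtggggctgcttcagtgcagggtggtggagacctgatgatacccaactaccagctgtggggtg
The match lies before the start and is no evidence of binding in these cells. The same letters occurred in 0.712% of the 32851 promoters and in no other promoter of the 10 genes that the table holds. The promoters of 8 of the 10 genes were found there, without Ccnd1 and Ccnd2.

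Of the E2F genes, E2f2 fell and E2f1 did not pass the test. E2f2 (ENSMUSG00000018983.9, chromosome 4, 136172394 to 136196057), an activator E2F of proliferating blood cells, was at 7.98, 9.05, 8.85, 8.83 and 8.82 FPKM in untreated 1 to 5. In PLG 1 to 5 it was at 1.45, 1.23, 1.45, 1.51 and 1.38 FPKM. The groups were far apart and tight, with untreated 1 the lowest of its group. The mean fell from 8.71 ± 0.420 to 1.41 ± 0.107 FPKM, 6.19-fold in FPKM (limma log2 fold change -2.01, SE 0.07, adjusted p = 1.95e-11, exact permutation p = 0.00794).

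E2f1 (ENSMUSG00000027490.17, chromosome 2, 154559407 to 154569892), the activator E2F most often used as a sign of entry into S phase, was at 8.23, 9.11, 6.81, 5.84 and 5.90 FPKM in untreated samples, and at 8.18, 7.65, 7.31, 9.61 and 8.43 FPKM with PLG. The ranges overlapped over most of their width. The means were 7.18 ± 1.45 and 8.24 ± 0.887 FPKM (limma log2 fold change 0.19, SE 0.11, adjusted p = 0.169, exact permutation p = 0.214). Without untreated 2 it passed as higher (log2 fold change 0.27, limma adjusted p = 0.0354), the only one of its 21 alternatives to do so (0.0354 to 0.354).

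The promoter of the first of the RefSeq starts of E2f2 on GRCm38.p6 is shown, at chr4:136172024-136172323 on the + strand. It was chosen because it holds motifs of a form that E2F factors can bind. The letters searched were TTTGGCGC, TTTGGCGG and TTTCCCGC on both strands, and matches are in capitals.
E2f2 promoter: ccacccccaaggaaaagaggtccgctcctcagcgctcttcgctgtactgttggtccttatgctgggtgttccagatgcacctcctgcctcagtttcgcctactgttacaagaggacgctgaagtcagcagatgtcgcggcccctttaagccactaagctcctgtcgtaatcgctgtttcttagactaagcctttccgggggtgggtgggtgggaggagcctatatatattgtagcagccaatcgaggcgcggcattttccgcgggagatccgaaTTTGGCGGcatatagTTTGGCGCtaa
Both matches lie just after the RefSeq start and are no evidence of binding in these cells. The whole window lies before the gene start of 136172394 given above. Of the 32851 promoters 2.1% held at least 1 of these motifs and 21 held at least 2. None of the other promoters found for the 10 genes held these exact letters in its window, and other forms of the E2F site were not searched. For E2f1 the window, 154569377 to 154569676 on the - strand, lies inside the gene as placed above. The bases before its start at 154569892 were therefore not searched.

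Because FPKM is scaled per length, the make-up of each family could be followed across the samples as a description. Ccnd2 made up 52.1% ± 3.11 of the summed D cyclin FPKM in untreated samples and 94.0% ± 0.30 with PLG (SD, n = 5 each). Ccnd1 went from 18% ± 1.7 to 0.757% ± 0.0861 and Ccnd3 from 29.9% ± 2.52 to 5.27% ± 0.334. The D cyclin transcripts of PLG samples were thus almost entirely Ccnd2 in each of the 5 samples (93.6% to 94.3%). Cdk4 took 65.2% ± 2.41 of the summed CDK level in untreated samples and 53.8% ± 1.93 with PLG. E2f1 and E2f2 were near parity in untreated samples, with 39.8% to 50.8% for E2f1, and E2f1 took 83.4% to 86.4% with PLG. Cdkn1a took 84.3% ± 1.47 of the summed level of the 3 inhibitors in untreated samples and 90.3% ± 0.769 with PLG, the smallest shift of a leading gene among the 4 families.

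**Figure D3:**
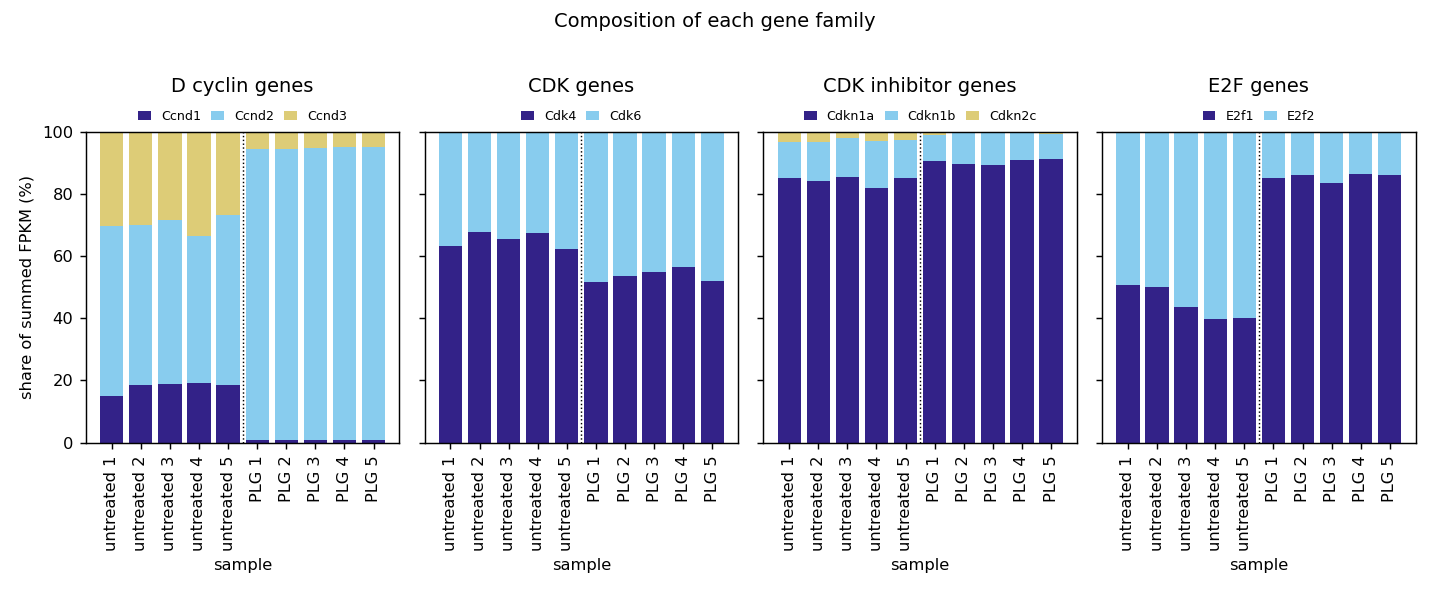
Share of each gene in the summed FPKM of its family (y axis, percent) in each of the 10 samples (x axis), with the 5 untreated samples left of the dotted line and the 5 PLG samples right of it. A family holds only its members among the 10 genes. Ccnd2 fills 93.6% to 94.3% of the D cyclin bars and E2f1 83.4% to 86.4% of the E2F bars with PLG, against 47.1% to 54.7% and 39.8% to 50.8% in untreated samples.

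The summed levels of the families also differed. The summed D cyclin level was 14.6 ± 2.33 FPKM in untreated and 67.5 ± 3.80 FPKM in PLG samples, and that of Cdk4 and Cdk6 was 32.6 ± 1.85 and 25.2 ± 1.5 FPKM. The sum of E2f1 and E2f2 went from 15.9 ± 1.43 to 9.64 ± 0.947 FPKM, with the loss in E2f2, and that of the 3 inhibitors from 73.2 ± 4.65 to 137.0 ± 4.27 FPKM. Per sample, the ratio of D cyclin to CDK transcript was 0.33 to 0.55 in untreated and 2.45 to 2.93 in PLG samples. The ratio of inhibitor to CDK transcript was 2.03 to 2.48 and 4.98 to 6.03. PLG samples therefore held more D cyclin transcript per length than Cdk4 and Cdk6 transcript together, and untreated samples the reverse. Against Ccnd2 alone, Cdkn1a transcript was 7.28 to 10.7 times as abundant in untreated samples and 1.87 to 2.03 times with PLG.

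The order of the levels changed with the treatment. In untreated samples it ran from Cdkn1a through Cdk4, Cdk6, Cdkn1b, E2f2, Ccnd2, E2f1, Ccnd3 and Ccnd1 to Cdkn2c. Ranges of neighbours overlapped between Cdkn1b and E2f2, E2f2 and Ccnd2, Ccnd2 and E2f1, and Ccnd1 and Cdkn2c, so these places are not settled. With PLG the order ran from Cdkn1a through Ccnd2, Cdk4, Cdkn1b, Cdk6, E2f1, Ccnd3, E2f2 and Cdkn2c to Ccnd1. Here Cdk4, Cdkn1b and Cdk6 overlapped with their neighbours in that run, as did E2f2 with Cdkn2c and Cdkn2c with Ccnd1. Ccnd2 moved from the sixth to the second place, apart from its neighbours on both sides, and E2f2 from the fifth to the eighth.

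Several of the 10 genes share bases with a gene on the opposite strand in GENCODE M21, whose coordinates match those of the table for all 10. The strand setting in the counting is not given in the sources used here. Reads in shared stretches therefore cannot be assigned with certainty. Cdk4 shares 641 bases with Tspan31, which was at 17.1 FPKM in untreated and 20.0 FPKM in PLG samples on average. Ccnd1 shares 1771 bases with LTO1 (2.64 and 3.0 FPKM) and Ccnd3 361 bases with Bysl (5.27 and 3.84 FPKM). Ccnd2, Cdk6 and Cdkn1a overlap antisense or unclassified gene models that were not analysed here.

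The other genes of the G1/S pathway moved both ways. Of 23 listed genes 20 were tested, of which 3 rose, 9 fell and 8 did not pass, with a median log2 fold change of -0.25. The share called, 12 of 20, was near the 60.4% of all genes tested. The risers were Cdkn2b and, named after their values were seen, E2f5 and Cdkn2a. Cdkn2b (ENSMUSG00000073802.5), which encodes the INK4 inhibitor p15, went from 1.36 ± 0.722 to 13.8 ± 1.81 FPKM (limma log2 fold change 2.71, SE 0.19, adjusted p = 2.99e-08). Cdkn2a, whose transcripts for p16 and for the p53 activator ARF cannot be told apart here, went from 0.908 ± 0.326 to 1.6 ± 0.47 FPKM with overlap (limma adjusted p = 0.0152), on 28 to 116 reads per library. It did not pass with voom on recovered reads (adjusted p = 0.131) or without the 3 samples low in Gm10800 (0.0857). The third, E2f5, an E2F of the repressor class, went from 3.61 ± 0.816 to 8.62 ± 1.1 FPKM. Of the INK4 genes, Cdkn2b thus rose and Cdkn2c fell in every alternative run, Cdkn2a rose less surely, and Cdkn2d, also named after its values were seen, did not pass at 6.64 ± 1.31 FPKM in untreated and 6.24 ± 0.780 FPKM in PLG samples.

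Among the members of that list that fell were Cdkn1c, Myc and E2f8. Cdkn1c, which encodes the third inhibitor of the p21 and p27 class, p57, went from 5.64 ± 1.1 to 1.01 ± 0.315 FPKM, against the direction of Cdkn1a and Cdkn1b. Myc, a driver of cell growth, fell from 6.04 ± 0.804 to 1.52 ± 0.197 FPKM (limma log2 fold change -1.48, SE 0.09, adjusted p = 9.89e-09). E2f8, an atypical E2F that represses E2F targets, fell from 7.93 ± 0.704 to 2.93 ± 0.323 FPKM. E2f4, the most abundant E2F in the list, was at 17.9 ± 1.22 FPKM in untreated and 19.5 ± 1.37 FPKM in PLG samples, and Rbl2, a relative of the retinoblastoma gene, at 9.0 ± 1.0 and 7.77 ± 0.453 FPKM, and these did not pass. E2f4 passed as higher without PLG 3 (limma adjusted p = 0.0486) or without the 3 samples low in Gm10800 (0.0322). Rbl2 passed as lower in 6 of 21 alternatives: without untreated 2 (0.0120) or untreated 4 (0.0428), with a filter of 5 FPKM (0.0484), quantile normalization (0.0403), the replicate block (0.0492) or voom (0.0131).

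Genes listed for the breakdown of D cyclins and of p27 moved both ways, and the part of each in that breakdown was not tested. Of 10 tested, 1 rose, 4 fell and 5 did not pass, and the median of 0.11 was of the other sign than most of the calls. Over all genes tested 60.4% passed, 31.3% downward and 29.1% upward, and a list of 10 genes is small for such a comparison. The riser was Cul1, a scaffold of ubiquitin ligases (23.3 ± 1.2 to 30.3 ± 1.16 FPKM). Gsk3b, a kinase that marks cyclin D1 for destruction, went from 24.0 ± 0.950 to 16.1 ± 0.522 FPKM. Skp2, the ligase subunit that targets p27, went from 1.38 ± 0.186 to 0.661 ± 0.148 FPKM, and Fbxw7 from 7.12 ± 0.527 to 4.25 ± 0.633 FPKM. Of these, Skp2 passed the filter only through the untreated samples. The other one that fell, named after its values were seen, was Cks1b, a cofactor of Skp2, at 4.99 ± 1.72 and 2.67 ± 1.09 FPKM with overlap (limma adjusted p = 0.0136). Without PLG 2 the risers were 2, with Fbxo4 added (limma adjusted p = 0.0376). Skp1a, at 21.7 ± 3.20 FPKM untreated and 25.4 ± 4.55 FPKM with PLG, and Ambra1, which targets D cyclins, at 9.94 ± 1.2 and 11.1 ± 0.748 FPKM, did not pass, nor did Fbxo4, Fbxo31 and Fbxw8, named after their values were seen.

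Genes of DNA synthesis that E2F factors control fell in larger part. Of 26 listed genes 19 were tested, of which 16 fell and 2 rose, with a median of -0.74 beside -0.02 over all genes tested. Over all genes tested 31.3% were lower and 29.1% higher. Ccna2, Cdc45, Pola1 and Chaf1a, which all fell, passed the filter only through the untreated samples. Tyms passed it only through the PLG samples, and the entry of such genes favoured a change. Without a filter 19 of the 26 listed genes were lower and 2 were higher. The cyclin A gene Ccna2 went from 3.83 ± 0.437 to 0.353 ± 0.131 FPKM (limma log2 fold change -1.84, SE 0.10, adjusted p = 1.47e-09). Rrm2, a subunit of ribonucleotide reductase, went from 5.75 ± 1.59 to 0.768 ± 0.230 FPKM, the helicase subunit Mcm2 from 2.95 ± 0.262 to 0.926 ± 0.204 FPKM and the licensing factor Cdt1 from 8.34 ± 0.887 to 4.16 ± 0.334 FPKM. The pair that rose, named after their values were seen, were the thymidylate pathway genes Tk1 (4.05 ± 0.503 to 7.23 ± 0.392 FPKM) and Tyms (0.593 ± 0.195 to 1.49 ± 0.305 FPKM). Slbp, at 3.45 ± 0.548 and 3.29 ± 0.442 FPKM, did not pass.

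Most genes of the mitosis list fell as well. Of 21 tested genes 19 fell and 1 rose, with a median of -1.32, beside 31.3% lower and 29.1% higher over all genes tested. Most of the 19 that fell passed the filter only through the untreated samples, so their entry favoured a fall. They were Cenpe, Kif20a, Bub1, Ccnb1, Plk1, Aurka, Aurkb, Birc5, Kif11, Ube2c and Foxm1, and the median rests in part on them. Without a filter 21 of the 23 listed genes were lower and 1 was higher. Top2a went from 8.19 ± 1.03 to 1.31 ± 0.203 FPKM, the kinetochore motor Cenpe from 2.58 ± 0.259 to 0.434 ± 0.0773 FPKM, the cytokinesis kinesin Kif20a from 3.78 ± 0.692 to 0.565 ± 0.175 FPKM and the checkpoint kinase Bub1 from 2.17 ± 0.215 to 0.418 ± 0.106 FPKM. The 1 that rose, named after its values were seen, was Mki67, the gene of the proliferation antigen Ki-67, from 15.1 ± 1.68 to 24.2 ± 2.54 FPKM (limma log2 fold change 0.65, SE 0.09, adjusted p = 1.66e-05), with no overlap between the groups. Cenpa, at 5.37 ± 1.23 and 4.16 ± 1.01 FPKM, did not pass, although it did so as lower without untreated 3 (limma adjusted p = 0.0309), without PLG 3 (0.0274), without the 3 samples low in Gm10800 (0.0337) and with voom (0.0181).

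Genes under p53 control, of which Cdkn1a is one, moved both ways. Of 19 tested, without Cdkn1a, 6 rose, 9 fell and 4 did not pass, with a median of -0.14. Over all genes tested 29.1% were higher and 31.3% lower. Mdm2, the p53 inhibitor, rose from 39.3 ± 1.86 to 70.5 ± 1.62 FPKM (limma log2 fold change 0.83, SE 0.04, adjusted p = 1.38e-09) and the kinase gene Plk2 from 52.0 ± 4.31 to 109.9 ± 5.65 FPKM. Ccng1 fell from 88.1 ± 3.24 to 47.9 ± 2.49 FPKM and Zmat3 from 11 ± 0.68 to 3.78 ± 0.229 FPKM. The cell death genes Bax, at 34.4 ± 1.62 and 31.3 ± 3.84 FPKM, and Bbc3, at 8.62 ± 1.29 and 8.65 ± 1.2 FPKM, did not pass. Bax passed as lower with quantile normalization (limma adjusted p = 0.00516). The other 2 that did not pass, named after their values were seen, were Rrm2b and the death receptor gene Tnfrsf10b (1.36 ± 0.291 and 1.81 ± 0.254 FPKM, limma adjusted p = 0.0510). Tnfrsf10b passed as higher in 6 of 20 alternatives, among them without untreated 1 (0.0307), untreated 4 (0.0431) or PLG 4 (0.0310). The rise of Cdkn1a was thus shared by some genes of this list and not by others.

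**Figure D4:**
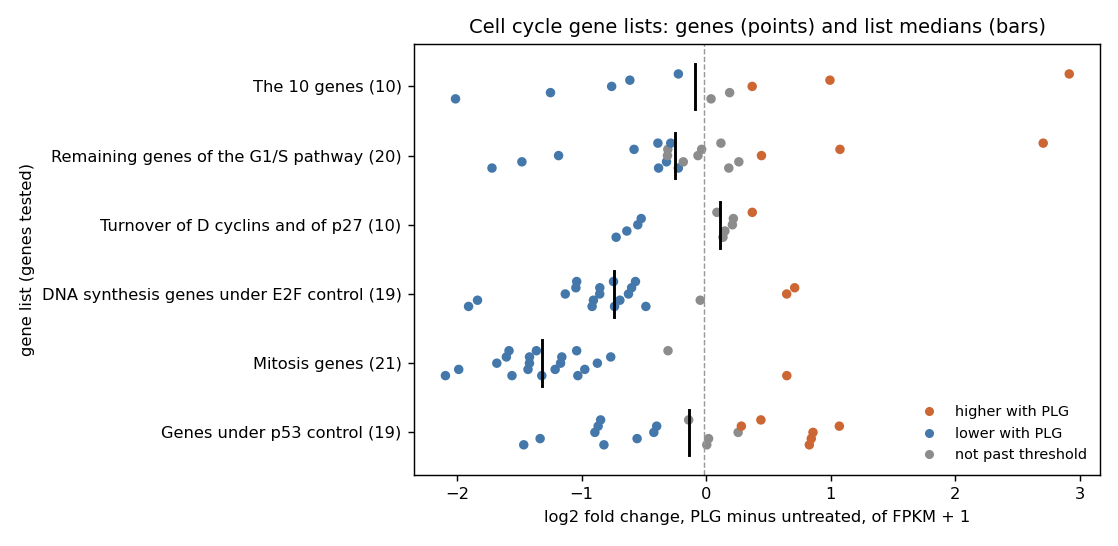
Log2 fold change (x axis, PLG minus untreated, of FPKM + 1) of each tested gene (points) in the 10 genes and in 5 related lists, with the number tested in brackets, each list's median as a bar and the median of all genes tested as a dashed line (orange higher, blue lower, grey not past the threshold). The mitosis list has 19 of 21 genes lower with PLG and a median of -1.32, and the p53 list has 6 higher and 9 lower. Most of the 19 lower mitosis genes passed the filter only through the untreated samples, which favoured a fall.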

How the data were processed

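RNA-seq of 10 mouse macrophage samples was analysed from 1 table of FPKM that the authors deposited for 16936 protein-coding genes. Per the submitters' processing notes, which state neither role nor sequence, the tools included STAR 2.7.3a, featureCounts 2.0.0, cutadapt 2.10, FastQC 0.11.9 and DESeq2 1.24.0, and the build was GRCm38.p6. For the annotation and strand setting, nothing is given in the sources used here.

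Products of FPKM and gene length fell on whole multiples of 1 step in each sample (100% of the values tested, tolerance 0.1 read), and the step was taken as 1 read. It was worth 0.0141 to 0.0313 FPKM on a gene of 1 kb. Genes at 1 FPKM or more in at least 5 of 10 samples, 9997 in number, were fitted as log2(FPKM + 1) in limma 3.58.1 (R 4.3.3, eBayes with trend, treatment as the only term). With groups of 5, a gene that reached 1 FPKM in only 1 of the groups could also enter, and its entry then favoured a change. P-values over these 9997 genes were adjusted by the method of Benjamini and Hochberg, and the fit was tested on simulated data. Exact two-sided permutation tests of mean FPKM used scipy 1.17.1.

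The 10 genes and the lists were chosen with earlier results of these data known, and so were the motifs. From each list, up to 4 genes with the smallest p that passed and up to 2 of the most abundant that did not were named, beside those marked as named after their values were seen and those that make up a count of 5 or fewer. Lists are described by counts and medians, with no set test. Alternatives were other pseudocounts, filters, scalings and moderation, a replicate block, voom on recovered reads and leaving out each sample. Leaving out the 3 samples low in Gm10800 was added after seeing the data.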

Additional observations from a re-analysis of the deposited data

Results flagged for a closer look

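In 8 of the 100 groups of 5 samples examined, over the 10 genes and the pathway genes named, 1 sample stood apart from the other 4, with a gap to its nearest neighbour of more than 0.71 of the group's range. Chance gives about 1 in 20 groups. Of these, 4 fell among the 20 groups of the 10 genes. Ccnd2 in untreated 4 was at 5.04 FPKM, below the next lowest at 7.99 FPKM. Cdkn1b was highest in the same sample, at 9.93 FPKM, with the next at 9.27 FPKM. E2f2 in untreated 1 was at 7.98 FPKM, below 8.82 FPKM in the next. Cdk6 in PLG 3 was at 10.4 FPKM, with the next lowest at 11.9 FPKM. Outside the 10 genes, Bax in PLG 2 was at 24.6 FPKM, below 32.0 FPKM, and Myc in PLG 5 at 1.86 FPKM, above 1.49 FPKM. Cdkn2a in untreated 5 was at 1.47 FPKM, above 0.901 FPKM, and Cdkn2d in PLG 4 at 4.89 FPKM, below 6.37 FPKM. Without untreated 4 the log2 fold change of Ccnd2 was 2.79, against 2.91 with it.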

How the results depend on the processing

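Ccnd1, Ccnd2, Cdk4, Cdkn1a, Cdkn1b, Cdkn2c and E2f2 kept their direction and passed in every alternative run on them (21, or 20 for genes that a filter of 5 FPKM removes). Ccnd3 did not pass without a filter or with the replicate block (-0.22 in both), with median-of-ratios scaling (-0.20, adjusted p = 0.0573) or without the 3 samples low in Gm10800 (-0.17, adjusted p = 0.214), and leaving out single samples gave -0.28 to -0.18. E2f1 ranged from 0.13 to 0.27 without single samples. Cdk6 turned to -0.011 with quantile normalization (limma adjusted p = 0.904). The filter of 5 FPKM left 2 of the 10 genes lower instead of 5, since it removes Ccnd1, Ccnd3 and Cdkn2c. Under it 4 instead of 9 other G1/S genes were lower, 2 instead of 4 turnover genes, 5 instead of 16 DNA synthesis genes (1 instead of 2 higher) and 1 instead of 19 mitosis genes, because fewer genes were tested. Without single samples 1 to 2 turnover genes were higher. Bbc3, which did not pass anywhere, was at -0.029 with quantile normalization, -0.048 with voom, -0.13 without the 3 samples and -0.044 to 0.077 without single samples, and Slbp at -0.13 to 0.017. Of others that passed nowhere, Rrm2b was at -0.043 with voom, -0.084 without the 3 samples and -0.038 to 0.066 without single samples, and Cdkn2d at 0.091 without the 3 samples and -0.16 to 0.0063 without single samples. The cause of these changes was not tested where none is named.

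Deviations of same-numbered samples correlated at -0.12 to 0.10. With no other pairs set beside them, these values cannot settle whether samples of the same number share a mouse or a batch. With the replicate block 2797 genes were higher and 2988 lower, against 2914 and 3126 without it, and apart from Ccnd3 it changed no call among the 10 genes. Over all genes, calls without single samples were 2701 to 2978 higher and 2936 to 3133 lower. Ccnd1 and Cdkn2c have the fewest reads, which limits their precision.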
